A study of Mus musculus with 32 samples.

Results

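Prolonged cigarette smoke was compared with room air in the lungs of unoperated female C57B/6 mice. The libraries were taken by their labels for sex, exposure and operation: 5 libraries from females exposed to cigarette smoke for 5 months and 3 libraries from females kept in room air for 5 months, 8 of the 32 libraries in the series. Each library is poly(A) RNA of lung tissue, made from Trizol-extracted RNA. Unoperated males under the same exposures (5 smoke and 3 air libraries) shared the model that was fitted, and 5 libraries of smoke-exposed females with a sham operation, lungs taken at 5 months, are set beside the results once. All groups carry the C57B/6 strain and no engineered allele is named in the labels. The series is titled as a study of sex-dependent dendritic cell and monocyte lineages in emphysematous lung. The labels do not say how the animals were exposed or at what hour lungs were taken. They also leave unsaid whether each library is another animal, so the p-values measure the spread between these libraries, which may be technical.

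Cigarette smoke enters the lung as particles and reactive chemicals that meet airway epithelium, alveolar macrophages and the thin gas-exchange wall. That wall is built from flat alveolar type 1 cells, surfactant-making type 2 cells, capillary endothelium and a scaffold of collagen and elastin made by fibroblasts. Lung cells also run a circadian clock, in which the activator pair Clock and Bmal1 switches on repressors of the Per, Cry and Rev-erb families, so that the activator and repressor genes peak at opposite times of day. Lung tissue RNA mixes all of these cells with the blood in the tissue, and fewer cells of a type cannot be told apart from less RNA per cell.

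The libraries held 17.2 to 20.4 M counts in air and 13.8 to 19.4 M in smoke. The type 2 cell gene Sftpc stood at 19529 to 25688 CPM (counts scaled to the same total in each library) in air and at 21253 to 28183 CPM in smoke, so the labelled tissue is present in all 8. The female transcript Xist was at 264 CPM or more in all 8 libraries, and the Y-linked genes Ddx3y, Uty, Kdm5d and Eif2s3y were at 0.700 CPM or less. No 2 of the 8 were near-copies. Libraries differed in features the exposure labels do not explain. The summed level of 13 club and goblet cell genes was 43783, 31508 and 43953 CPM in air libraries 1, 2 and 3 and 31617, 13267, 14238, 11819.7 and 32254 CPM in smoke libraries 1 to 5, so smoke libraries 2, 3 and 4 held less airway RNA than the other 5. Liver genes, absent from healthy lung, summed to 39.4, 248 and 8.11 CPM in air and to at most 22.2 CPM in smoke. Mitochondrially encoded RNA took 1.56 to 1.80% of counts in air and 1.93 to 2.60% in smoke, without overlap. The part of these differences in the gene results was not tested, beyond the fits without single libraries and without smoke libraries 2, 3 and 4.

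**Figure D1:**
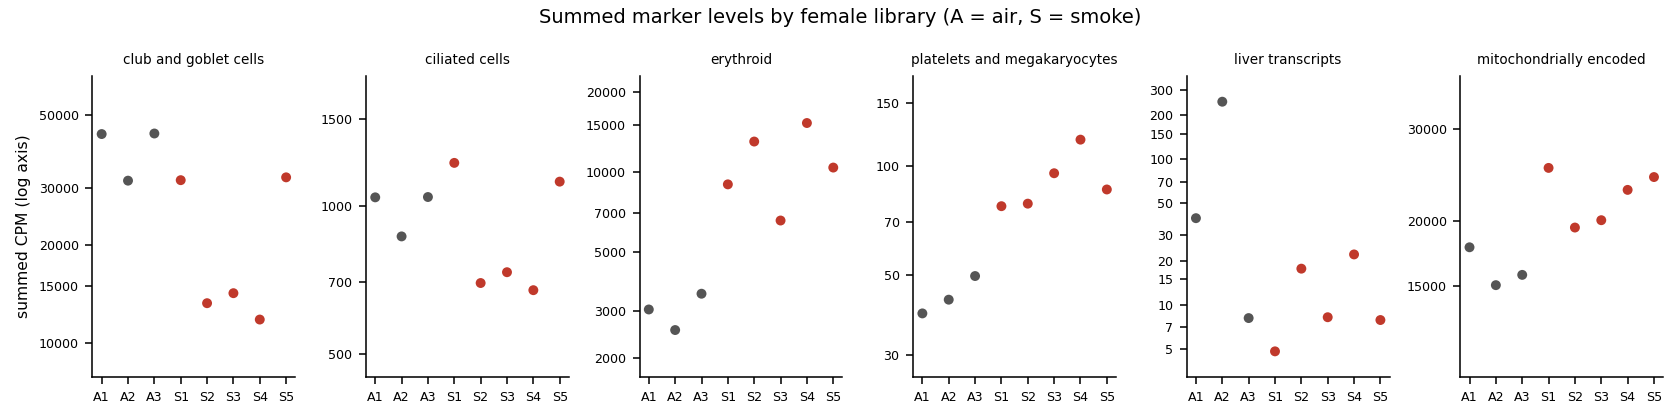
Summed CPM of 6 marker lists in each female library on a log axis, grey for air (A1 to A3) and red for smoke (S1 to S5). Club and ciliated sums are low in smoke libraries 2, 3 and 4, erythroid and platelet sums are higher in all 5 smoke libraries than in any air library, and liver transcripts stand out in air library 2 (248 CPM).

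Of 35275 genes with deposited counts, 16361 had enough counts to be tested, and 1259 (7.7%) passed edgeR's quasi-likelihood test at a Benjamini-Hochberg adjusted p under 0.05; these are the genes called below. In smoke 739 (4.52%) were higher and 520 (3.18%) were lower. The typical called change was modest: the median fold was 1.44 in both directions, 745 called genes changed by less than 1.5-fold, and 197 by at least 2-fold (137 higher, 60 lower). The median log2 fold change over all genes tested was -0.01. Groups did not overlap (every smoke library above or below every air library) for 2374 genes tested, or 14.5%, and for 1153 of the called genes (91.6%). The total dropped to 459 without air library 3, of which 440 were among the 1259, and to 490 without smoke libraries 2, 3 and 4, of which 435 were. No called gene changed sign in any of these fits.

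**Figure D2:**
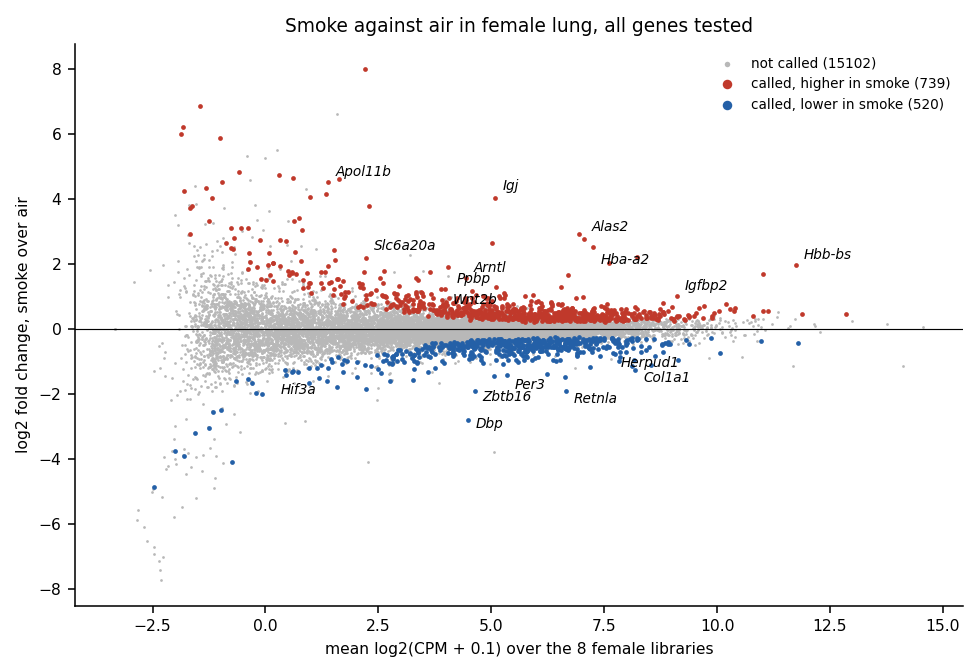
Log2 fold change of smoke over air against mean log2(CPM + 0.1) for the 16361 genes tested in females, with 739 called higher in red and 520 called lower in blue. Most called genes lie within 1 log2 unit of 0; the labelled genes are described in the text.

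The 2 lists of clock genes moved in opposite directions. The list called the activator arm here also holds the repressor genes Nfil3 and Cry1, so the lists do not split strictly by role. In it 4 of 7 tested genes rose and 0 fell (median log2 fold change, log2FC, 0.60). In the repressor and output arm 10 of 12 fell and 0 rose (median -0.93), against 4.52% risen and 3.18% fallen among all genes tested. Arntl, which encodes Bmal1 (chromosome 7 from 113207465 to 113314122), was at 11.8, 13.7 and 7.52 CPM in air libraries 1 to 3 and at 31.9, 40.2, 32.9, 29.7 and 32.6 CPM in smoke libraries 1 to 5. Every smoke library exceeded the highest air library by more than 2-fold (log2FC 1.60, SE 0.16, adjusted p = 2.59e-05). Npas2, a partner of Bmal1 related to Clock, ran from 7.63, 7.44 and 2.94 CPM in air to 25.2, 21.9, 18.95, 20.9 and 14.9 CPM in smoke (log2FC 1.75, SE 0.27, adjusted p = 0.000901). Clock itself rose less, from 68.04, 71.1 and 46.95 to 101, 94.5, 88.5, 101 and 85.3 CPM (log2FC 0.60, SE 0.12, adjusted p = 0.00317). Nfil3, a repressor that competes with Dbp for its DNA site, was at 7.53, 6.95 and 5.23 CPM in air and 13.6, 14.95, 15.4, 15.1 and 14.6 CPM in smoke (log2FC 1.16, SE 0.24, adjusted p = 0.00464). In the same arm Cry1, a repressor that peaks late in the cycle, had a log2 fold change of 0.43 that did not pass the test (adjusted p = 0.105).

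On the repressor and output side Dbp, a transcription factor driven directly by the clock (chromosome 7 from 45705088 to 45710155), was at 64.3, 59.8 and 108 CPM in air and 12.2, 6.46, 9.21, 16.1 and 12.8 CPM in smoke (log2FC -2.78, SE 0.40, adjusted p = 0.00147). The highest smoke library, at 16.1 CPM, lay far below the lowest air library at 59.8 CPM. The Rev-erb genes, nuclear receptors that repress Arntl, fell together. Nr1d1 went from 184, 170.0 and 213 to 69.8, 48.5, 68.7, 87.6 and 66.5 CPM (log2FC -1.47, SE 0.23, adjusted p = 0.00207). Nr1d2 fell by 1.36 on the log2 scale (adjusted p = 0.000487). Per3 was at 66.1, 78.3 and 82.9 CPM in air and 29.3, 24.4, 22.6, 24.5 and 42.8 CPM in smoke (log2FC -1.40, SE 0.18, adjusted p = 0.000358). Per2 was at 48.8, 71.03 and 70.6 CPM in air and 23.5, 20.6, 23.3, 15.7 and 35.4 CPM in smoke (log2FC -1.42, SE 0.22, adjusted p = 0.00111). In both Per genes smoke library 5 was the highest of the 5 and still below every air library. Tef, a relative of Dbp, fell by 0.84 (adjusted p = 7.05e-05) and Bhlhe40, a repressor of Clock and Bmal1, by 0.93 (adjusted p = 0.000221). Some calls were lost when 1 library was left out, here and below given with the libraries (air 1 to 3, smoke 1 to 5) and the highest adjusted p. They were Per1 (-0.93; lost without air 1, 2 or 3, adjusted p up to 0.0774), Hlf (-0.66; lost without air 1 or 3, adjusted p up to 0.140) and Cry2 (-0.35; lost without air 3 or smoke 3 or 4, adjusted p up to 0.183). Without air library 3, 7 of 12 had fallen. Without smoke libraries 2, 3 and 4 the counts were 2 risen and 7 fallen. The hour of collection is not in the labels, so a shift in time of day and a change in clock gene expression cannot be told apart here.

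**Figure D3:**
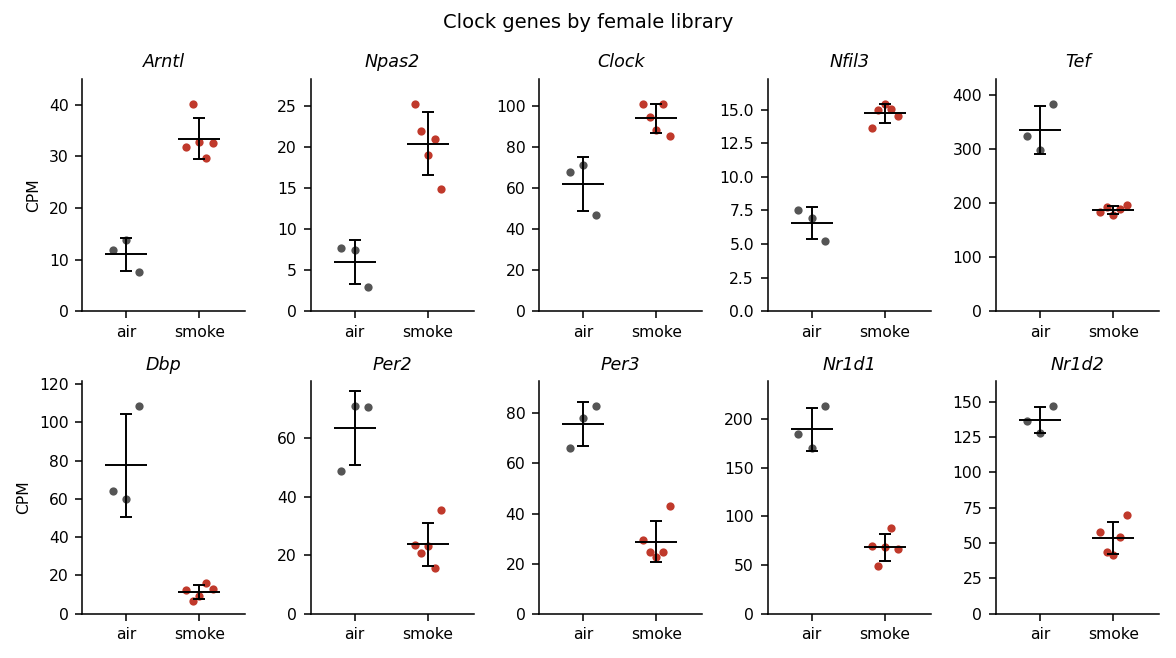
CPM of 10 clock genes in each female library (grey air, n = 3; red smoke, n = 5), with the mean and SD as bar and whiskers and axes that start at 0. Arntl, Npas2, Clock and Nfil3 are higher in every smoke library, and Tef, Dbp, Per2, Per3, Nr1d1 and Nr1d2 are lower, with no overlap.

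The stretches below, upstream of annotated starts, are shown because they hold letters that the clock proteins are known to read in called members. They come from RefSeq promoters (GRCm38.p6, 250 bases before to 50 after each start), which had entries for 6 of 7 activator-arm and 10 of 12 repressor-arm genes. Capitals mark an E-box (CACGTG, read by Clock and Bmal1), a D-box (TTANGTAA, read by Dbp, Tef, Hlf and Nfil3) or the core of a Rev-erb and Ror element (TAGGTCA, here on the opposite strand), all searched on both strands.
Per1 (E-box, chr11:69098743-69098828, plus strand): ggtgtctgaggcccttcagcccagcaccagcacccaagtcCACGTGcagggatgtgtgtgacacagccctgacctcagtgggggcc
Tef, first start (E-box, chr15:81802506-81802591, plus strand): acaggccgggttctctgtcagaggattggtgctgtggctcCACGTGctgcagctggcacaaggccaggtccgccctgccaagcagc
Tef, second start (E-box, chr15:81811236-81811321, plus strand): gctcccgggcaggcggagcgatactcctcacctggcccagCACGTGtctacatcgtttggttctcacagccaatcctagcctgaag
Per3 (D-boxes, chr4:151044776-151044910, minus strand): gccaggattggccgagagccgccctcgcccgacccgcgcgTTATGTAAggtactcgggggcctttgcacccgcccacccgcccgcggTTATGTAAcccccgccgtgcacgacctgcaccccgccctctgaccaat
Nfil3 (Rev-erb and Ror core, chr13:52981040-52981091, minus strand): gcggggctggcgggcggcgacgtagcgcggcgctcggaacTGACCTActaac
In the repressor and output arm 4 of the 10 genes with an entry held an E-box (Per1, Tef, Ciart and Bhlhe41), against 8.09% of all 27025 genes with an entry, and 1 (Per3, with 2 D-boxes) held a D-box, against 2.72%. In the activator arm 2 of 6 held the Rev-erb and Ror core (Nfil3 and Arntl), against 2.97%, and 1 (Cry1) an E-box. The Arntl match lies 30 bases past the second of its annotated starts, so it is not among the upstream stretches shown. The matches describe letters in a short window and were not tied to the size of a change: Ciart and Bhlhe41 hold an E-box and were not called (-0.68 and -0.37 on the log2 scale).

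Genes induced by glucocorticoids, the adrenal steroids that also follow a daily rhythm, fell in part: 7 of 16 fell and 0 rose (median -0.45), with 3 fallen without air library 3. Zbtb16, a transcription factor strongly induced by glucocorticoids, was at 52.3, 45.1 and 75.04 CPM in air and 17.5, 18.4, 13.9, 14.7 and 11.9 CPM in smoke (log2FC -1.91, SE 0.31, adjusted p = 0.00229). Its call was lost without smoke libraries 2, 3 and 4 (adjusted p = 0.0605). Fkbp5, a chaperone partner of the glucocorticoid receptor, went from 39.1, 31.7 and 53.5 to 19.97, 26.1, 19.3, 22.5 and 19.3 CPM (log2FC -0.95, SE 0.18, adjusted p = 0.00279). Tsc22d3, which encodes the anti-inflammatory protein Gilz, stood at 394, 302 and 385 CPM in air and 131, 283, 151, 154 and 190.2 CPM in smoke (-0.98 on the log2 scale; lost without air 3, adjusted p up to 0.0584). Smoke library 2 was the highest of the 5 for Fkbp5 and Tsc22d3. Hif3a, counted here and among hypoxia genes, fell by 1.57 from under 6 CPM (adjusted p = 0.00161). The list shares Per1 with the clock.

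Part of the connective tissue scaffold genes fell. Among fibrillar collagens 5 of 8 tested genes fell and 0 rose (median -0.84), and all 5 calls held without any 1 library. Col1a1, which encodes a type I collagen chain (chromosome 11 from 94936224 to 94953042), was at 508, 484 and 521 CPM in air and 226, 162, 253, 244 and 179.7 CPM in smoke (log2FC -1.25, SE 0.14, adjusted p = 9.65e-05), with 253 CPM in the highest smoke library against 484 in the lowest air library. Col1a2, the other type I chain, fell from 632, 579 and 595 to 282, 210.4, 328, 332 and 244 CPM (log2FC -1.11, SE 0.14, adjusted p = 0.000130). Col3a1, of type III collagen, went from 885, 829 and 819.8 to 494, 378, 479.9, 532 and 340.0 CPM (log2FC -0.93, SE 0.15, adjusted p = 0.00117). For all 3 genes smoke libraries 2 and 5 were the lowest. Per gene length, in the authors' TPM, which can be compared between genes, Col1a2 averaged 230.0 ± 13.9 TPM (SD) in air and 111 ± 23.3 in smoke. Col3a1 averaged 311 ± 24.1 and 169 ± 34.8 TPM, so its RNA stayed above that of Col1a2. RNA of single chains does not give the amounts of type I and type III collagen. Col5a1 and Col5a2, of the type V collagen that seeds fibrils, fell by 0.71 and 0.76.

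Other collagens did not all move one way: of 16, 4 fell (7 with only the 8 female libraries) and 2 rose (median -0.29). Col6a1, a chain of the beaded type VI filament, was at 426, 437 and 431 CPM in air and 256, 250.1, 282, 300.0 and 241 CPM in smoke (log2FC -0.70, SE 0.09, adjusted p = 0.000130), with Col6a2 (-0.70) and Col16a1 (-0.75) alike in direction. Col6a3 fell (lost without air 1, 2 or 3, adjusted p up to 0.0906). The 2 that rose were Col4a3, a type IV chain of alveolar basement membranes (0.54), and Col12a1 (0.51); both calls were lost without air library 3 (adjusted p = 0.115 and 0.0593). Among genes of collagen processing, 5 of 16 fell and 2 rose. Adamts2, which trims procollagen, held without any 1 library (94.1, 93.4 and 97.2 CPM in air, 57.01, 43.7, 59.3, 61.5 and 42.7 CPM in smoke; log2FC -0.85, SE 0.12, adjusted p = 0.000222). The other 6 calls were lost without at least 1 library, leaving 1 fallen and 0 risen without air library 3, 1 fallen without air library 2, and 3, 2 and 3 fallen without smoke libraries 1, 2 and 5.

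Of 15 elastic fibre genes 7 fell and 0 rose (median -0.43), with 3 fallen without air library 3 and 4 without air library 2 or smoke library 2. Mfap5, a microfibril gene, was at 57.2, 54.7 and 62.2 CPM in air and 32.5, 33.6, 34.7, 40.01 and 36.6 CPM in smoke (log2FC -0.71, SE 0.11, adjusted p = 0.000358). That call, its relative Mfap2 (-0.79, adjusted p = 0.000384) and the TGF beta binding gene Ltbp1 (-0.40, adjusted p = 0.00357) held without any 1 library. Laminins split: Lamb1 (-0.60) and Lama2 (-0.69) fell with those calls held, while Lama3 rose (0.70; lost without air 3, adjusted p up to 0.0939), in all 4 of 14 fallen and 2 risen. Without air library 3 these were 2 and 0, and without air library 2 they were 2 and 1. Matrix-degrading enzymes and their inhibitors showed 2 of 19 fallen, 0 risen (2 with DESeq2) and a median of 0.04. Timp1, a metalloprotease inhibitor, was at 10.7, 10.1 and 12.2 CPM in air and 4.25, 5.84, 5.90, 6.69 and 3.69 CPM in smoke (log2FC -1.06, SE 0.23, adjusted p = 0.00592). The other was the gelatinase gene Mmp2 (-0.96; lost without air 1, 2 or 3, adjusted p up to 0.114). Mmp12, the macrophage elastase, was at 7.24, 4.55 and 4.11 CPM in air and 4.31, 4.48, 4.37, 2.91 and 5.10 CPM in smoke and did not pass (adjusted p = 0.507). Ogn, a small matrix proteoglycan, rose against the trend, from 339.9, 332 and 309 to 442, 542, 439, 505 and 583 CPM (log2FC 0.62, SE 0.11, adjusted p = 0.000933). Tnxb, a tenascin, fell (-0.71, adjusted p = 0.000118).

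Markers of the cells that make this scaffold moved in part. In 15 fibroblast markers 4 fell and 2 rose (median -0.26), and all 6 calls held without any 1 library. Pi16, of adventitial fibroblasts, was at 64.1, 46.5 and 61.3 CPM in air and 34.2, 30.6, 36.2, 34.9 and 27.1 CPM in smoke (log2FC -0.81, SE 0.12, adjusted p = 0.000221). Cd34 (-0.50) and Clec3b (-0.52) fell too, with Mfap5, and Limch1 (0.52) and Dpp4 (0.45) rose. The Limch1 call was lost without smoke libraries 2, 3 and 4 (adjusted p = 0.101). Of 11 smooth muscle genes 5 fell and 0 rose (median -0.74), but Smtn, of the contractile apparatus, was the only one that held without any 1 library (log2FC -0.76, SE 0.12, adjusted p = 0.000390). There was 1 left without air library 3, and 1 without smoke libraries 2, 3 and 4. There were 2 without smoke library 2 or 4, and 3 when air library 1 or 2 or smoke library 3 or 5 was left out. Pericyte genes, with the nitric oxide receptor, fell in 5 of 11 cases (median -0.39; 2 without air library 3 and 3 without air library 2). The receptor subunit gene Gucy1b3 was at 87.6, 106 and 110.3 CPM in air and 60.5, 71.6, 71.5, 72.2 and 70.02 CPM in smoke (log2FC -0.55, SE 0.10, adjusted p = 0.00122). Lamc3, a laminin chain gene, held as well (log2FC -0.90, SE 0.18, adjusted p = 0.00297). Markers of heart muscle, which can be carried along with lung, were called in 0 of 11 cases by edgeR and by DESeq2, with 0 at an unadjusted p under 0.05.

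**Figure D4:**
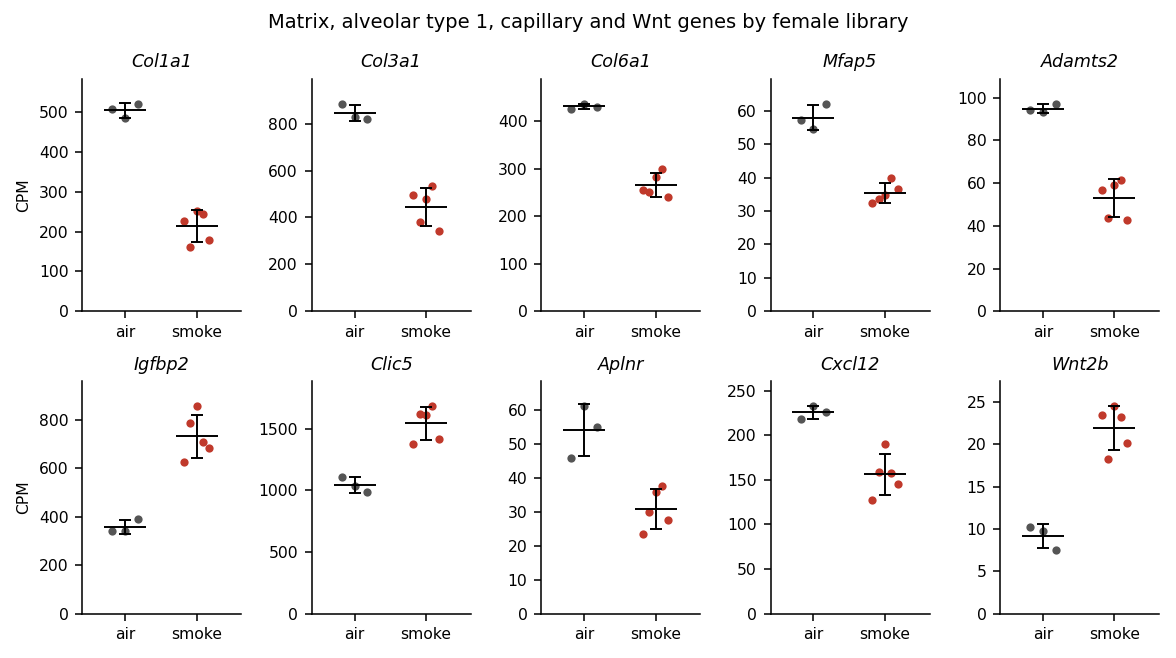
CPM of 10 genes in each female library (grey air, n = 3; red smoke, n = 5), with the mean and SD as bar and whiskers and axes that start at 0. Col1a1, Col3a1, Col6a1, Mfap5, Adamts2, Aplnr and Cxcl12 are lower in every smoke library, and Igfbp2, Clic5 and Wnt2b are higher in every one.

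In the gas-exchange wall, type 1 epithelial and capillary genes moved apart. Of 13 alveolar type 1 markers 6 rose and 0 fell (median 0.31), and each of the 6 held without any 1 library, while 2 were left without smoke libraries 2, 3 and 4. Igfbp2, a type 1 cell marker whose protein binds insulin-like growth factors (chromosome 1 from 72824503 to 72852474), was at 339, 342 and 388 CPM in air and 626, 785, 856, 708 and 682 CPM in smoke (log2FC 1.04, SE 0.13, adjusted p = 0.000124). Clic5, a type 1 cell chloride channel gene, rose from 1109, 1034 and 986 to 1376, 1618, 1612, 1681 and 1418 CPM (log2FC 0.56, SE 0.10, adjusted p = 0.00188). Akap5 (0.67), Sema3e (0.53), Pdpn (0.52) and Rtkn2 (0.53) were the others. Ager, the most used marker of these cells, overlapped between groups (3240.0, 2487 and 3221 CPM in air, 3089, 4207, 3958, 3780.5 and 3515 in smoke; log2FC 0.31, adjusted p = 0.107). Of 15 junction genes 3 rose and 1 fell (1 and 1 without smoke libraries 2, 3 and 4). Cldn18, the alveolar claudin (0.62, adjusted p = 0.00595), and Cgn (0.43) rose. The Cldn18 call was lost without smoke libraries 2, 3 and 4 (adjusted p = 0.165). Cldn5, the endothelial claudin, fell (-0.55; lost without air 3, adjusted p up to 0.109). In type 2 cells 1 of 14 genes was called, the lipid transporter gene Abca3 (0.53; lost without air 1, 2 or 3 or smoke 2, 3 or 4, adjusted p up to 0.194), and Sftpc was not (log2FC 0.08, adjusted p = 0.745). For type 2 cells DESeq2 called 4 higher and the fit of all 32 libraries 3, and 6 were higher at an unadjusted p under 0.05.

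Capillaries consist of aerocytes, specialised for gas exchange, and general capillary cells. Of 9 aerocyte genes 5 fell and 0 rose (median -0.48), and 2 were left without air library 3. Ednrb, an endothelin receptor gene, was at 75.3, 76.4 and 87.03 CPM in air and 49.8, 57.6, 62.8, 61.8 and 52.6 CPM in smoke (log2FC -0.48, SE 0.08, adjusted p = 0.000932). The transcription factor gene Tbx2 also held (-0.53, adjusted p = 0.00155). The carbonic anhydrase gene Car4 fell by 0.55 (lost without air 3, adjusted p up to 0.0502). Of 10 general capillary genes 6 fell and 1 rose (median -0.53), with 2 fallen and 0 risen without air library 3. Aplnr, the apelin receptor, was at 45.8, 60.998 and 54.8 CPM in air and 23.5, 29.96, 35.7, 37.5 and 27.4 CPM in smoke (log2FC -0.81, SE 0.13, adjusted p = 0.000933). The chemokine gene Cxcl12 was at 219, 233 and 226 and 127, 159, 191, 157 and 146 CPM (log2FC -0.53, SE 0.11, adjusted p = 0.00356). The one that rose was Sema3c (0.32; lost without air 1 or 3 or smoke 2, adjusted p up to 0.131). Genes of general endothelium and VEGF signalling, 1 list, fell in 5 of 17 cases (median -0.23), with 1 without air library 3 and 3 without smoke library 1 or 5. The 1 that held was Figf, which encodes the growth factor Vegf-d (-0.45, adjusted p = 0.00790). Pecam1 did not hold (-0.44, lost without air 3 or smoke 1 or 5, adjusted p up to 0.221). Sox18, Tie1 and Cdh5 were also lost without air library 3 (adjusted p = 0.0578, 0.118 and 0.171), so the fall of this list is not firm.

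Club and ciliated cell genes gave 0 calls. Among 13 club and goblet genes edgeR and DESeq2 called 0, with 1 lower at an unadjusted p under 0.05 (median -0.48). Among 15 ciliated cell genes both called 0, with 0 at an unadjusted p under 0.05 (median -0.35). Scgb1a1, the main secretory product of club cells, was at 34796, 24857 and 35436 CPM in air and 22369, 9333, 8663, 6917 and 24705 CPM in smoke (log2FC -1.14, SE 0.60, adjusted p = 0.313). That left smoke libraries 1 and 5 just below the lowest air library and 2, 3 and 4 at 9333 or less. Sprr1a, of the squamous cell envelope, was the 1 called gene of 9 in the basal and squamous list. It was at 5.49, 6.95 and 6.29 CPM in air and 1.78, 1.46, 1.39, 2.25 and 2.33 CPM in smoke (log2FC -1.76, SE 0.30, adjusted p = 0.000892). In the mesothelium, the covering of the lung, 3 of 9 genes rose (median 0.47; 1 without air library 3 or smoke library 3 or 4, and 0 without smoke libraries 2, 3 and 4). Other fits gave more: 7 with DESeq2 or with only the 8 female libraries and 6 with all 32, and 8 were higher at an unadjusted p under 0.05. The membrane gene Gpm6a held (254, 198 and 197 CPM in air, 311, 372, 354, 414 and 317 CPM in smoke; log2FC 0.71, SE 0.14, adjusted p = 0.00442).

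**Figure D5:**
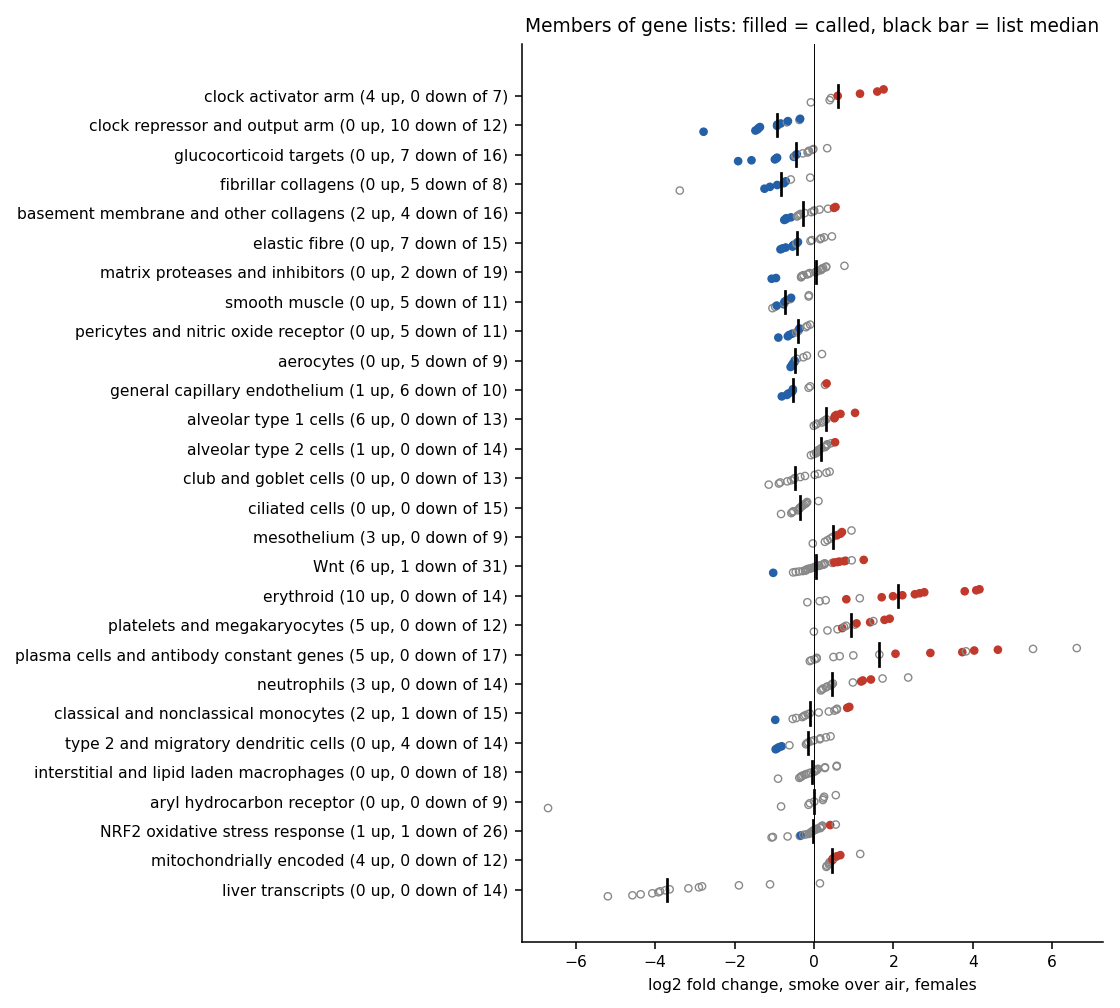
Log2 fold changes of the members of 28 gene lists in females (smoke over air), with called genes filled in red or blue, others open, and each list's median as a black bar. The medians of the clock repressor, fibrillar collagen and capillary lists lie left of 0, those of type 1 and erythroid genes lie right of it, and club, ciliated and liver genes have open points only.

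Blood cell genes were among the largest rises. Of 14 erythroid genes 10 rose and 0 fell (median 2.11). Hba-a2, an alpha globin gene (chromosome 11 from 32296489 to 32297298), was at 54.1, 41.2 and 64.7 CPM in air and 312, 171, 241, 522 and 306 CPM in smoke (log2FC 2.54, SE 0.34, adjusted p = 0.000841). Alas2, which starts haem synthesis in developing red cells, rose from 42.1, 38.4 and 44.5 to 243, 257, 169, 523 and 239.7 CPM (log2FC 2.78, SE 0.46, adjusted p = 0.00332). Hbb-bs, a beta globin gene, went from 1545, 1248 and 1703 to 4984, 7569.8, 3402, 7736 and 6103 CPM (log2FC 1.99, SE 0.35, adjusted p = 0.00453). Smoke library 4 was the highest for all 3 genes. No smoke library overlapped air, which the rule that named these genes required. All 3 calls held without any 1 library. The membrane transporter gene Slc4a1 (3.80; lost without air 1, 2 or 3, adjusted p up to 0.0869), Trim10 (4.09; lost without air 3, adjusted p up to 0.0505) and the globin genes Hbb-bt (lost without air 1, 2 or 3, adjusted p up to 0.0822) and Hba-a1 (lost without air 1, 2 or 3, adjusted p up to 0.0731) did not, nor did Fech, of the last haem step (lost without air 1, 2 or 3, adjusted p up to 0.129). The count was 4 without air library 3 and 6 without air library 1 or 2. Globin paralogs are near-identical, so reads may have been split between them. Blood left in the tissue was not measured apart from these genes.

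Platelet and megakaryocyte genes rose in 5 of 12 cases (median 0.92). Ppbp, a platelet chemokine, was at 6.71, 7.39 and 7.82 CPM in air and 20.2, 25.4, 27.97, 38.1 and 25.5 CPM in smoke (log2FC 1.91, SE 0.23, adjusted p = 0.000146). The platelet receptor gene Clec1b was at 6.27, 5.53 and 4.82 and 9.31, 12.3, 13.3, 11.9 and 11.5 CPM (log2FC 1.07, SE 0.16, adjusted p = 0.000358). Tubb1 (1.78) and Gp9 (1.42) held as well, and Itga2b, an integrin gene, did not (lost without air 1, 2 or 3 or smoke 1, 3, 4 or 5, adjusted p up to 0.113). Without smoke libraries 2, 3 and 4 the Gp9 call was lost (adjusted p = 0.0709).

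Antibody genes rose by large folds, in a number of members that depended on the test. Of 17 plasma cell and antibody constant genes 5 rose and 0 fell (median 1.65), with 2 left without any 1 air library or without smoke library 1 or 2. DESeq2 called 10 higher, and 12 were higher at an unadjusted p under 0.05 in edgeR. Igj, the joining chain of secreted antibody, held, at 6.12, 7.53 and 6.05 CPM in air and 102, 242, 48.98, 50.1 and 95.9 CPM in smoke (log2FC 4.04, SE 0.73, adjusted p = 0.00580). So did Igkc, the kappa light chain constant region, at 36.8, 44.2 and 31.7 CPM in air and 328, 556, 132, 153 and 265 CPM in smoke (log2FC 2.93, SE 0.54, adjusted p = 0.00598). Smoke library 2 was the highest for both. Among immunoglobulin variable segments 15 of 86 were called, all higher, but similar segments can share reads, which makes any single segment uncertain. In B cells 3 of 14 genes rose (median 0.57; 1 when air library 1 or 3 or smoke library 1 or 2 was left out; 5 with DESeq2). The homing receptor gene Cxcr5 held (8.51, 7.44 and 7.58 CPM in air, 14.5, 13.9, 10.6, 13.2 and 12.8 CPM in smoke; log2FC 0.73, SE 0.15, adjusted p = 0.00317).

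Myeloid cells, which the series concerns, gave few calls, and with 7.7% of all genes called, 1 or 2 calls in lists of this size are near the background. Of 15 monocyte markers 2 rose and 1 fell (median -0.11). Ly6c2, of classical monocytes, was at 12.9, 8.61 and 12.05 CPM in air and 20.2, 25.7, 18.95, 17.7 and 17.3 CPM in smoke (log2FC 0.84, SE 0.16, adjusted p = 0.00185). Plac8 was at 22.4, 19.3 and 24.7 CPM in air and 39.7, 38.7, 40.03, 44.8 and 41.9 CPM in smoke (log2FC 0.89, SE 0.17, adjusted p = 0.00348). The Plac8 call was lost without smoke libraries 2, 3 and 4 (adjusted p = 0.0549). Vcan, a matrix proteoglycan gene also made by monocytes, fell (-0.97; lost without air 1, adjusted p up to 0.0822). Type 2 and migratory dendritic cell genes fell in 4 of 14 cases (median -0.16; 1 without air library 3). Mgl2, a lectin of type 2 dendritic cells and some macrophages, held: 31.6, 31.2 and 43.01 CPM in air and 17.1, 20.6, 17.03, 20.4 and 20.2 CPM in smoke (log2FC -0.88, SE 0.14, adjusted p = 0.000387). The chemokine genes Ccl22 (-0.96; lost without air 3, adjusted p up to 0.0541) and Ccl17 (-0.92; lost without air 3, adjusted p up to 0.0953) fell too. So did Fscn1, of migrating dendritic cells (lost without air 2 or 3 or smoke 2, 3, 4 or 5, adjusted p up to 0.168). Of 12 type 1 dendritic cell genes the growth factor receptor gene Flt3 fell (lost without air 1, 2 or 3 or smoke 1, adjusted p up to 0.0774). Among 18 interstitial and lipid-laden macrophage genes edgeR called 0 and DESeq2 1, lower, with 1 higher and 2 lower at an unadjusted p under 0.05. Of 15 alveolar macrophage genes Ear1 rose (0.85, adjusted p = 0.0110), and Car4, shared with aerocytes, fell. Ear1 was lost without smoke libraries 2, 3 and 4 (adjusted p = 0.0838).

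Neutrophil genes rose in 3 of 14 cases (median 0.46). S100a8 (10.5, 8.90 and 7.35 CPM in air, 11.95, 24.5, 15.97, 25.1 and 27.6 CPM in smoke), S100a9 and Il1b had log2 fold changes of 1.23, 1.19 and 1.43. All 3 calls were lost without air library 3 (adjusted p = 0.0729, 0.0689 and 0.0583), and 0 were left without smoke libraries 2, 3 and 4. Cxcl5, a chemokine that draws neutrophils and is made by lung epithelium, was at 0.583, 0.587 and 0 CPM in air and 6.35, 1.98, 3.71, 5.09 and 4.85 CPM in smoke (log2FC 3.42, SE 0.72, adjusted p = 0.00822). Cxcl14 fell from 182, 268 and 271 to 91.3, 111, 126, 107 and 106 CPM (log2FC -1.15, SE 0.15, adjusted p = 0.000221). In all, 3 of 29 chemokine genes rose and 5 fell, with 2 fallen without air library 3. Of 16 inflammatory cytokine genes 5 rose and 1 fell, with 1 risen and 0 fallen without air library 3 or without smoke libraries 2, 3 and 4. The cytokine gene Csf1, a growth factor of macrophages, rose (0.40, adjusted p = 0.00403; lost without smoke libraries 2, 3 and 4, adjusted p = 0.0849). Retnla, a product of alternatively activated macrophages and airway cells, was at 454, 178 and 123 CPM in air and 119, 44.4, 63.1, 51.5 and 61.1 CPM in smoke (-1.89; lost without air 1, adjusted p up to 0.0686); air library 1 alone held 454 CPM. Of 19 complement genes 2 rose and 0 fell (median 0.07), with 4 higher in DESeq2 and 0 higher without smoke libraries 2, 3 and 4. Complement C4b rose from 649, 649 and 533 to 1028, 1021, 965, 1131 and 909 CPM (log2FC 0.73, SE 0.13, adjusted p = 0.00189). Without smoke libraries 2, 3 and 4 its adjusted p was 0.0502. Among 13 natural killer and cytotoxic cell genes edgeR and DESeq2 called 0, with 5 higher at an unadjusted p under 0.05 (median 0.57). In the T cell list the cytokine receptor gene Il7r rose (0.58; lost without air 3 or smoke 2, adjusted p up to 0.151) and Lef1 fell. Among 22 interferon-stimulated genes Oas2 (lost without air 1, 2 or 3 or smoke 1, 2 or 5, adjusted p up to 0.0831) and Ifit2 (lost without air 1, 2 or 3, adjusted p up to 0.0847) rose.

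Responses often measured after smoke gave little. Among 9 tested targets of the aryl hydrocarbon receptor, which senses polycyclic hydrocarbons, edgeR and DESeq2 called 0 (2 higher and 1 lower at an unadjusted p under 0.05; median 0.01). Cyp1a1, the best known of them, was at 15.2, 7.97 and 14.5 CPM in air and 6.62, 4.43, 8.35, 7.93 and 8.11 CPM in smoke (adjusted p = 0.618). Of 26 Nrf2 targets of the oxidative stress response 1 rose and 1 fell. The sulfiredoxin gene Srxn1 rose from 25.7, 27.3 and 29.03 to 35.6, 33.5, 36.9, 39.1 and 36.4 CPM (log2FC 0.41, SE 0.09, adjusted p = 0.00800). Its call was lost without smoke libraries 2, 3 and 4 (adjusted p = 0.0720), which left 0 of this list higher. The haem oxygenase gene Hmox1 fell (-0.33; lost without air 1, 2 or 3 or smoke 1, 3, 4 or 5, adjusted p up to 0.146). Nqo1, a quinone reductase gene, was at 5.44, 6.07 and 5.23 CPM in air and 10.1, 4.79, 7.89, 10.6 and 7.62 CPM in smoke (adjusted p = 0.177). Of 22 other xenobiotic enzymes 3 fell and 0 rose, with 5 fallen in the fit of only the 8 female libraries and 1 without air library 3, the monooxygenase gene Fmo1 (-0.47, adjusted p = 0.00418). In the unfolded protein response, where 1 of 18 genes rose and 1 fell, Herpud1 was at 289.8, 279.8 and 287 CPM in air and 156, 177, 183, 153 and 188 CPM in smoke, one of the tightest falls (log2FC -0.73, SE 0.08, adjusted p = 2.59e-05). Hypoxia genes fell in 3 of 20 cases and rose in 0 (2 with DESeq2). The falls included Ddit4 (-1.03, adjusted p = 0.00619) and Hif3a. Ddit4 was lost without smoke libraries 2, 3 and 4 (adjusted p = 0.142).

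Several large single changes lay outside these groups. Avpr1a, a vasopressin receptor gene, was at 1.51, 1.17 and 0.881 CPM in air and 5.06, 5.68, 6.69, 7.35 and 1.54 CPM in smoke (log2FC 2.13, SE 0.37, adjusted p = 0.00110), with smoke library 5 far below the other 4 and just above the highest air library. Gpr137c, an orphan receptor-like gene, went from 1.26, 0.929 and 1.06 to 6.03, 3.39, 3.98, 3.42 and 4.18 CPM (log2FC 1.95, SE 0.31, adjusted p = 0.000489). Angptl7, a secreted angiopoietin-like protein gene, fell from 19.2, 13.3 and 25.9 to 4.90, 6.46, 11.4, 4.51 and 5.90 CPM (log2FC -1.55, SE 0.24, adjusted p = 0.000499). Phex, a peptidase of phosphate balance, fell from 8.94, 7.04 and 6.76 to 2.48, 3.28, 1.92, 3.56 and 2.52 CPM (log2FC -1.46, SE 0.24, adjusted p = 0.000613). These 4 were named by a rule that takes only genes without overlap between groups, so their lack of overlap adds no support. Each of the 4 calls held without any 1 library. The Avpr1a call was lost without smoke libraries 2, 3 and 4 (adjusted p = 0.0527). Apol11b (0.437, 0.147 and 0.529 CPM in air, 8.02, 9.38, 3.98, 18.04 and 4.24 CPM in smoke; lost without air 2 or 3, adjusted p up to 0.0582), Mboat2 (-1.50; lost without air 1 or 3, adjusted p up to 0.0682) and the calcium pump gene Atp2b2 (-1.82; lost without air 2 or 3 or smoke 2 or 4, adjusted p up to 0.0954) were less firm. Serpina3n, a serine protease inhibitor of the acute phase, fell from 106, 105 and 110.3 to 55.8, 78.9, 55.7, 66.8 and 58.3 CPM (log2FC -0.76, SE 0.10, adjusted p = 0.000158), in a list of 13 antiproteases where 2 fell and 2 rose. Of 18 ion and fluid transport genes 5 rose and 2 fell (2 and 0 without air library 3, and 1 and 0 without smoke libraries 2, 3 and 4). Ano1, a chloride channel of airway and smooth muscle cells, held without any 1 library (141, 112 and 116 CPM in air, 179.8, 190.1, 177, 185 and 161 CPM in smoke; log2FC 0.54, SE 0.11, adjusted p = 0.00302). That call was lost without smoke libraries 2, 3 and 4 (adjusted p = 0.0723). The zinc exporter gene Slc30a1 fell by 0.48 (adjusted p = 0.00311). Class II antigen presentation genes rose in 3 of 10 cases (1 without air library 1 or 3, and 0 without smoke libraries 2, 3 and 4), of which H2-DMb1, the peptide loading gene, held (0.44, adjusted p = 0.00879).

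Developmental signalling genes changed in a few members each. In the Wnt list 6 of 31 rose and 1 fell (median 0.05), with 5 risen and 0 fallen without air library 3 and 3 risen and 2 fallen without smoke libraries 2, 3 and 4. Wnt2b, a ligand expressed in lung mesenchyme, was at 10.3, 9.73 and 7.52 CPM in air and 23.5, 18.2, 24.5, 23.2 and 20.1 CPM in smoke (log2FC 1.25, SE 0.16, adjusted p = 0.000110). The Wnt amplifier gene Rspo1 went from 43.4, 38.8 and 43.2 to 60.4, 82.7, 73.6, 70.5 and 67.1 CPM (log2FC 0.76, SE 0.12, adjusted p = 0.000450). The secreted Wnt modulator gene Sfrp2 (0.60, adjusted p = 0.00155) held without any 1 library. So did the ligand gene Wnt7a (0.80, adjusted p = 0.00402, but 0.0904 without smoke libraries 2, 3 and 4). Wnt3a (lost without air 2, adjusted p up to 0.0534), Wnt10b (lost without air 3, adjusted p up to 0.113) and the target transcription factor gene Lef1, which fell (-1.03; lost without air 3, adjusted p up to 0.0847), did not. In the TGF beta and BMP list 4 of 29 rose and 2 fell, with 2 risen and 4 fallen without smoke libraries 2, 3 and 4. Among those that rose were Bmp4 (0.48, adjusted p = 0.000986) and its receptor gene Bmpr1a (0.39). Bmpr1a was lost without smoke libraries 2, 3 and 4 (adjusted p = 0.0795). Smad9, which relays BMP signals, was at 17.3, 12.5 and 17.5 CPM in air and 26.1, 27.8, 29.6, 23.5 and 27.6 CPM in smoke (log2FC 0.78, SE 0.13, adjusted p = 0.000933). The 2 that fell were Gdf10, a BMP relative (log2FC -1.05, SE 0.15, adjusted p = 0.000221), and Tgfbr3 (lost without air 1 or 3 or smoke 1 or 5, adjusted p up to 0.134). Slc6a20a, a proline transporter gene, rose (2.04, 1.81 and 1.41 CPM in air, 8.45, 8.08, 7.69, 8.51 and 7.86 CPM in smoke; log2FC 2.20, SE 0.25, adjusted p = 5.07e-05).

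Beside these results, 4 of 12 mitochondrially encoded genes rose (median 0.46; 0 without air library 2 or 3, and 2 without smoke library 1, 4 or 5). Of 20 cytosolic ribosomal protein genes 4 rose (median 0.18; 2 without air library 3, 1 without air library 1 or 2, and 0 without smoke libraries 2, 3 and 4). Liver genes had a median of -3.69 with 0 of 14 called by edgeR, 2 lower by DESeq2 and 8 lower at an unadjusted p under 0.05. In unoperated males the same list had a median of -7.05, with 10 called lower by edgeR and 0 higher. The cause was not tested. Immediate early genes, which respond to handling, fell in 1 of 18 cases, Zfp36 (122, 129.6 and 122 CPM in air, 66.9, 82.7, 79.1, 76.6 and 92.7 CPM in smoke; log2FC -0.65, SE 0.10, adjusted p = 0.000358). Heat shock genes were called in 0 of 15 cases by edgeR and by DESeq2, with 1 higher and 1 lower at an unadjusted p under 0.05.

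Males exposed in the same way were compared to ask where females differ. In males 1678 genes were called (10.3%), and 717 genes were called in both sexes, 56.95% of the female and 42.7% of the male calls, all in the same direction. The test of the difference itself called 1 gene (0.00611%), with 940 at an unadjusted p under 0.05 and 17 called by DESeq2. That gene was Plcb1, a phospholipase of receptor signalling. It was at 18.6, 19.4 and 18.2 CPM in female air and 19.97, 19.02, 27.97, 22.5 and 24.4 CPM in female smoke. In males it fell from 37.6, 29.3 and 34.8 to 17.3, 17.4, 13.05, 19.4 and 14.5 CPM. The female log2 fold change was 0.28 (adjusted p = 0.245), the male one -1.05, and their difference 1.34 (SE 0.19, adjusted p = 0.0128 in edgeR). This call was lost without each of the 3 female air libraries in turn (adjusted p for Plcb1 in edgeR up to 0.0904). Hba-a2 differed by 2.57 without passing (adjusted p = 0.267 in edgeR), and its male air libraries stood at 154, 196 and 253 CPM, above every female air library. In Alas2 and Hbb-bs male air library 3 stood apart from the other 2, near the level of male smoke: male air held 73.4, 104 and 269 CPM of Alas2 and 1996, 2472 and 5758 CPM of Hbb-bs, and male smoke 234, 207, 289.9, 199 and 235 and 5829, 6834, 6233, 5311 and 6988 CPM. Neither Alas2 (adjusted p = 0.720) nor Hbb-bs (adjusted p = 0.854) passed edgeR's test of the difference. Sfrp2 (0.80, adjusted p = 0.144) and Wnt2b (1.02, adjusted p = 0.284) also missed the threshold, as did Sesn1, which was called lower in females alone (-0.67, adjusted p = 0.09996). A call in 1 sex alone does not show a difference between the sexes.

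Smoke-exposed females with a sham operation give a second set of levels for the same exposure time, scaled here over all 32 libraries. They belong to another experiment without an operated air group, so no test was made and exposure cannot be told apart from operation or experiment. Values follow as lowest to highest library in air, unoperated smoke and sham smoke; the genes were chosen after their values were seen. Arntl ran 7.63 to 13.8, 29.7 to 40.2 and 25.4 to 38.7 CPM, and Dbp 60.2 to 110.0, 6.46 to 16.1 and 12.4 to 39.4 CPM. Col1a1 ran 488 to 528, 162 to 253 and 113 to 169.7 CPM, and Igfbp2 343 to 394, 639 to 858 and 715 to 1243 CPM. For these 4 genes sham libraries lay on the smoke side of every air library. Wnt2b ran 7.63 to 10.4, 18.2 to 24.6 and 28.6 to 35.3 CPM. Igj ran 6.14 to 7.59, 49.1 to 242 and 213 to 592 CPM. Aplnr ran 46.3 to 61.4, 23.95 to 37.6 and 6.86 to 12.01 CPM. In these 3 genes sham levels were past all or most unoperated smoke libraries. Hba-a2 ran 41.5 to 65.6, 171 to 523 and 29.04 to 94.3 CPM, and Alas2 38.7 to 45.2, 169 to 523 and 26.02 to 70.3 CPM. No sham library reached the lowest unoperated smoke library. Ppbp ran 6.78 to 7.92, 20.7 to 38.2 and 8.41 to 16.7 CPM, so its sham libraries were also below every unoperated smoke library. Ccl22 ran 13.1 to 18.2, 5.91 to 8.76 and 8.09 to 18.2 CPM and Ccl17 8.69 to 13.2, 4.73 to 6.62 and 7.97 to 13.2 CPM, so their sham libraries overlapped air.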

How the data were processed

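Poly(A) RNA-seq of lung tissue was deposited as raw counts for 35275 genes and, for 35186 genes, as TPM, a measure per gene length. Per the labels, libraries came from Trizol RNA and the NEBNext Ultra 2 kit. The submitters' processing notes name FastQC, GRCm38 and mm10; the aligner, the counter and any use of strand were not given in the sources used here, so antisense and overlapping genes are uncertain. The TPM values deposited by the authors are counts divided by the gene length of the same table and scaled to 1 total, and were used for levels only. From the deposited counts, edgeR 4.0.16 (R 4.3.3) fitted 4 group means (female and male, smoke and air) to the 16 unoperated libraries, after filterByExpr and TMM scaling, with robust quasi-likelihood tests and Benjamini-Hochberg adjustment over 16361 genes. CPM use TMM-scaled totals. A called gene has an adjusted p under 0.05. Female libraries held 13.8 to 20.4 M counts, so values of a few CPM or less rest on few counts and are less precise. Alternatives were DESeq2 1.42.0, other scaling, filters and libraries, a replicate block, and each female library left out.

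Libraries were taken by their labels, but the comparison, as the members described here, and the 66 gene lists (984 genes, 980 matched, 947 tested) were chosen with earlier results of these data known. Genes were named by rule: the 12 largest rises and falls with a regular symbol, a mean log2 CPM of 1 or more and no overlap of the 2 groups; the 3 smallest p of each list with 3 or more calls; the 6 smallest p each way for the sex difference; and a fixed panel. Other list members named, the promoter stretches shown and the fit without smoke libraries 2, 3 and 4 were chosen after the data were seen. Promoter sequences are from RefSeq (GRCm38.p6); gene coordinates are those of the deposited table. A few called list members are counted but not reported here by name.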

Additional observations from a re-analysis of the deposited data

Results flagged for a closer look

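In 224 genes, those named by rule or called in a list, each group of 5 smoke libraries was checked for a library far from the other 4 by Dixon's test, which chance alone would point out in about 1 in 20 groups; 4 were found. Avpr1a was lowest in smoke library 5, at 1.54 CPM. Gucy1b3 was lowest in smoke library 1, at 60.5 CPM. Fech, of haem synthesis, was highest in smoke library 4, at 137.5 CPM, the library with the highest globin levels. Dpp4 was highest in smoke library 2, at 201 CPM. The smoke effect on Plcb1 differed between females and males by 1.34 on the log2 scale (adjusted p = 0.0128 in edgeR), with the values of each library given above.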

How the results depend on the processing

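No called gene changed sign under any alternative. The 1259 calls were 1287 with DESeq2's size factors in edgeR, 1158 with no filter, 1254 with a stricter one, 1667 with the DESeq2 test, 1169 with only the 8 female libraries and 1383 with all 32. Leaving out 1 library gave 459 (air library 3) to 1150 calls (smoke library 5), with 275 to 700 higher and 184 to 485 lower. The lowest counts came without air library 3 (275 higher, 184 lower); without air library 2 there were 329 lower and 883 in all. Without smoke libraries 2, 3 and 4, chosen after seeing the data, 490 were called (182 higher, 308 lower). With the replicate number as a block 1160 were called, 982 of them among the 1259, with 6 erythroid, 5 mesothelial and 4 type 2 cell genes higher. Same-numbered air and smoke libraries correlated at 0.122, 0.0860 and 0.0526 in their deviations from the group means. These were the highest values for air libraries 1 and 2, while air library 3 correlated slightly better with smoke library 5 (0.0586). The labels do not say that the numbers pair the libraries, and whether same-numbered libraries share a batch was not tested. The sex difference was called for 1 gene, for 17 in DESeq2 (15 higher, 2 lower in females), 0 with the replicate block, 3 with all 32 libraries (2 higher, 1 lower), 0 to 4 without 1 library (0 to 3 higher, 0 to 1 lower) and 2 without smoke libraries 2, 3 and 4, both higher. The cause of these moves was not tested; fits with fewer libraries have less power by construction. Of 215 called genes that were named or listed, 100 kept the call without any 1 female library.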
